A study of Equus caballus with 6 samples.

Results

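The nuclear genes for the subunits of the oxidative phosphorylation machinery were followed in lamellar hoof tissue of horses, diseased and normal. They were taken from the platform's gene annotation by symbol: the NDUFA, NDUFB, NDUFC, NDUFS and NDUFV genes of complex I without NDUFA4 and its relatives and without the NDUFAF assembly factors, SDHA to SDHD of complex II, the UQCR genes of complex III, the COX4 to COX8 genes of complex IV and the ATP5 genes of complex V. This gave 98 probe sets for 78 genes, out of 24016 probe sets for 9155 named genes besides the controls. Complex I had 46 probe sets for 36 genes, complex II 4 for 4, complex III 11 for 8, complex IV 15 for 12 and complex V 20 for 16. The symbols COX7A2L, a factor in supercomplex assembly, and ATP5IF1, the ATP synthase inhibitor, also matched but are no structural subunits, and they were kept out of the values given by complex.

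Lamellar tissue is the interleaved epidermis and dermis that holds the coffin bone to the hoof wall, and laminitis is the disease in which that hold fails. The laminitis group was 3 samples of diseased tissue (replicates 1, 3 and 4) and the normal group 3 samples of normal tissue (replicates 2, 3 and 4), all from the right foot, with 1 array each. How the disease arose, the ages of the horses, and whether the 6 samples are separate animals are not given in the sources used here, so the p-values rest on the spread among these 6 arrays alone, and that spread may be technical. Horse RNA was read with Affymetrix bovine probes, and a probe set that mismatches the horse transcript reads low. In whole tissue, fewer cells of a type and less RNA per cell cannot be told apart.

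Oxidative phosphorylation turns the energy of nutrients into ATP at the inner mitochondrial membrane. Complex I takes electrons from NADH and complex II from succinate, complex III passes them from ubiquinol to cytochrome c, complex IV hands them to oxygen, and complex V, the ATP synthase, uses the proton gradient built on the way. Each of complexes I, III, IV and V combines nuclear subunits, such as those measured here, with subunits encoded in mitochondrial DNA, which were not analysed here. In skin and hoof epidermis, where the cells that divide and keratinise have no blood vessels of their own, glycolysis is known to supply much of the ATP.

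Most measured differences of the subunit genes between laminitis and normal lamellae were small. Of the 78 genes, 70 were bright enough to test, which means above their own array's median on at least 3 of the 6 arrays, and 60 of these lay above it on all 6. Their median log2 difference, laminitis minus normal, was 0.036, beside -0.029 over all 6151 genes tested. It was -0.033 without laminitis replicate 1 and 0.11 without laminitis replicate 4. Positive values were found for 39 genes (55.7%) and negative values for 31, where 46.4% of all genes tested were positive. The absolute difference exceeded 0.5 on the log2 scale in 4 of the 70 subunit genes (5.71%) and in 21.1% of all genes tested, and it exceeded 1, a 2-fold change, in 1 (1.43%) against 4.65%. The median size of the difference was 0.17 for the subunit genes and 0.25 for all genes. These comparisons were not matched for brightness, and 38.6% of the subunit genes but 15.2% of the other genes had a mean log2 over 9.

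Limma with Benjamini-Hochberg adjustment over all probe sets called 0 of the 70 genes higher and 0 lower at 0.05, and it called 0% of all genes. The smallest adjusted p among the subunits was 0.402, for UQCRB. At an unadjusted p under 0.05, 3 subunit genes were higher, namely NDUFB1, COX6A2 and ATP5F1B, against a background of 5.27% of all genes, and 1 was lower, UQCRB, against 4.52%. COX6A2 met the brightness rule by its laminitis arrays alone, since normal replicates 3 and 4 lay under their array medians. On the deposited scale the lowest laminitis array exceeded the highest normal array in 3 subunit genes, NDUFB1, COX8A and ATP5F1B, where the background was 8.7%. The groups of COX8A and ATP5F1B overlapped after quantile normalization and after cyclic loess. The highest laminitis array was under the lowest normal array in 3, UQCRB, UQCR10 and UQCR11, where the background was 8.36%. These shares are close to or under the background in each direction. Without laminitis replicate 4 the groups were apart in 17 subunit genes higher (24.3%) and 9 lower (12.9%), where the shares over all genes on those arrays were 17% and 16.3%.

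The 95% intervals describe the spread among these arrays on the deposited scale. They leave out the choice of scaling and of probe set, so they do not bound a change in the transcript. For 49 of the 70 subunit genes (70%) the 95% interval of the log2 difference from limma lay wholly between -1 and 1, so that a 2-fold change either way fell outside it, and this held for 60.1% of all genes tested. For the others the interval reached a 2-fold change in at least 1 direction.

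**Figure D1:**
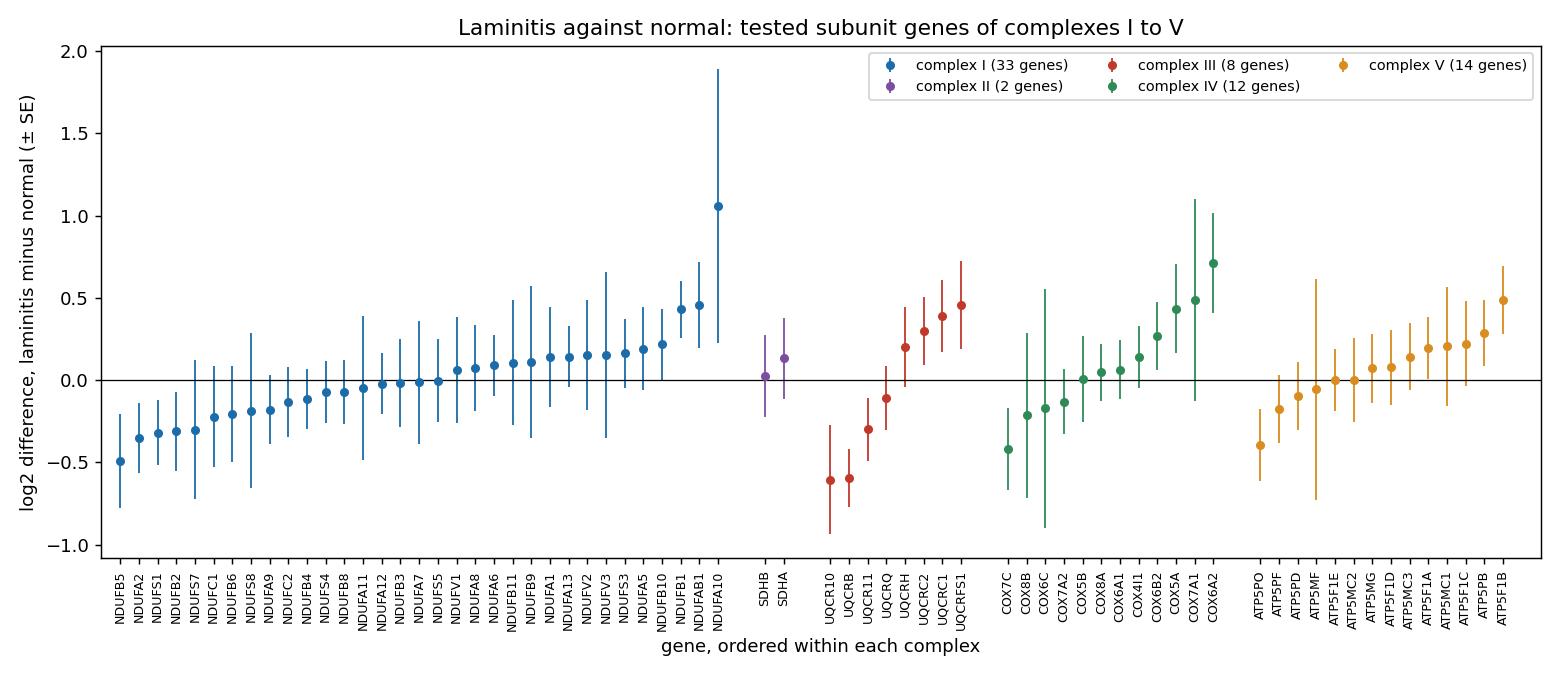
Log2 difference, laminitis minus normal (y axis), of the 69 tested genes that are structural subunits, ordered by value within complexes I to V (x axis); points are limma's estimates and bars their standard errors, 3 arrays per group. Most points lie within 0.5 of 0, NDUFA10 at 1.06 has a wide error, and complex III has 4 genes above and 4 below 0.

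The check of the tissue and the arrays was as follows. Of 9 keratinocyte markers and 9 fibroblast markers with a probe set, 8 of each lay above the array median on at least 3 arrays, KRT14, KRT5, COL1A1 and DCN on all 6. Medians of the arrays ran from 86.7 to 96.6 on the deposited linear scale. The log2 ratio of the 3' to the 5' control probe set, a sign of RNA quality, ran from 2.02 to 3.28 in laminitis and from 2.46 to 2.78 in normal tissue for GAPDH, and the groups overlapped for actin too. In the following, signals are given in the order of laminitis replicates 1, 3 and 4 and normal replicates 2, 3 and 4, and a difference in signal between probe sets is not read as one in RNA level.

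All 8 complex III genes were tested, with 4 positive and 4 negative differences, none past the test. The large core and iron-sulphur subunits had positive differences with groups that overlapped, and 4 of the 5 small subunits negative ones. UQCRB, a small subunit at the ubiquinone-binding side, read 121, 125 and 131 on the laminitis arrays and 183, 200 and 186 on the normal arrays. The laminitis values lay close together and all of them under the normal ones. The log2 difference of UQCRB was -0.59 ± 0.18 (SE, n = 3 per group), or 1.51-fold lower, with a limma adjusted p of 0.402 and a 95% interval from -1.01 to -0.18. With 1 array left out it stayed between -0.63 and -0.55. A dimmer UQCRB probe set, not tested, read 76.0, 56.9 and 93.6 against 64.2, 89.2 and 71.1, and its groups overlapped.

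UQCR10 and UQCR11, the smallest complex III subunits, also had groups that did not overlap, with laminitis lower. UQCR10 read 543, 547 and 248 in laminitis and 631, 651 and 631 in normal tissue. Laminitis replicate 4 stood far below the rest, while the normal arrays were nearly level. Its log2 difference was -0.60 ± 0.33 (limma adjusted p 0.597), and without laminitis replicate 4 it was -0.23. UQCR11 read 605, 498 and 555 against 671, 623 and 745, with a difference of -0.30 ± 0.19 (limma adjusted p 0.641). The other small subunits overlapped between groups: UQCRQ had -0.11 ± 0.20, and UQCRH, the acidic hinge protein that helps cytochrome c dock, had 0.20 ± 0.24.

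The core proteins UQCRC1 and UQCRC2 and the Rieske iron-sulphur protein UQCRFS1 had positive differences in all 3 genes, none past the test. UQCRC1 read 400, 284 and 353 in laminitis against 224, 274 and 288 in normal tissue, so that the laminitis value of replicate 3 lay inside the normal range. Its log2 difference was 0.39 ± 0.22 (limma adjusted p 0.599), but a dimmer tested UQCRC1 probe set gave -0.14 ± 0.23. UQCRC2 read 270, 346 and 251 against 251, 213 and 236, a difference of 0.30 ± 0.21 (limma adjusted p 0.666), with 0.040 ± 0.28 by its other probe set. UQCRFS1, which carries the electron from ubiquinol toward cytochrome c, read 598, 602 and 413 against 320, 355 and 507. Laminitis replicate 4 and normal replicate 4 overlapped for this gene, and its difference was 0.46 ± 0.27 (limma adjusted p 0.615).

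The median of these 3 was 0.39 and that of the 5 small subunits -0.30, around a median of 0.047 for the whole complex. The signs of both medians were the same under the other scalings: after quantile normalization the medians were 0.42 and -0.40, after cyclic loess 0.43 and -0.38, after centring on the median 0.48 and -0.22, and with 64 added 0.32 and -0.27. Under each of these scalings the 3 larger subunits stayed positive and 4 of the 5 small ones negative. The grouping into larger and small subunits was made with results of these data known, so it is a description with no test. CYC1, the cytochrome c1 subunit of the same complex, which the symbol rule does not take in, had 0.0074 ± 0.23 (limma adjusted p 0.993).

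**Figure D2:**
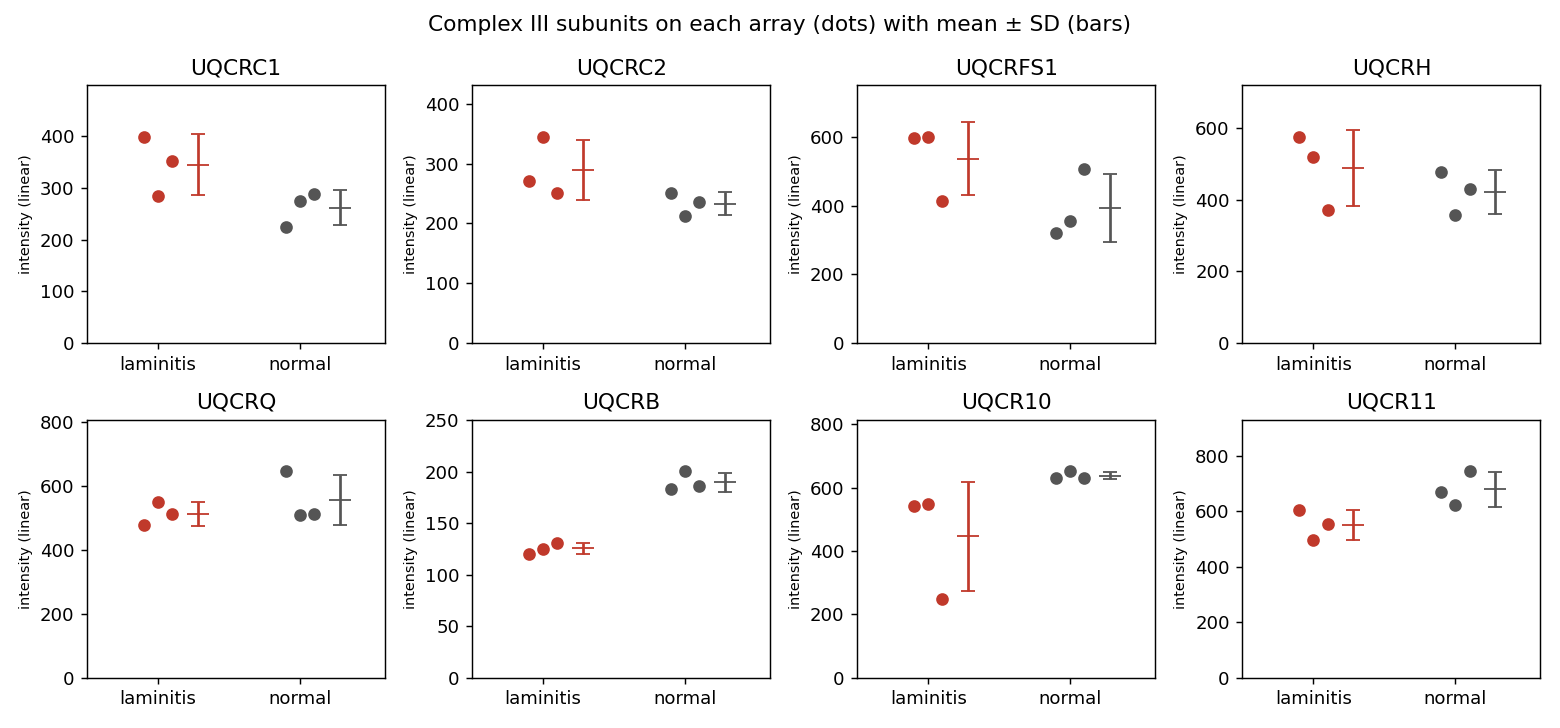
Signal on the deposited linear scale (y axis, from 0) of each complex III subunit on the 3 laminitis arrays (red dots) and the 3 normal arrays (grey dots), with the mean ± SD of each group beside them. UQCRB, UQCR10 and UQCR11 have no overlap between groups, while the larger subunits UQCRC1, UQCRC2 and UQCRFS1 have higher laminitis means with overlapping dots.

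Complex I, the entry point for electrons from NADH, had 33 of its 36 genes tested, with 15 positive and 18 negative differences and a median of -0.012. NDUFB1, a small membrane-arm subunit, was its only gene with the groups apart. It read 282, 257 and 278 in laminitis and 198, 210 and 198 in normal tissue, with little spread within either group. The log2 difference was 0.43 ± 0.17, or 1.35-fold higher, at a limma adjusted p of 0.498. It stayed between 0.41 and 0.47 with 1 array left out, and a second NDUFB1 probe set read no more than 13.6 on any array. Among the other membrane-arm genes, NDUFB5 read 162, 163 and 226 against 202, 226 and 364 (-0.49 ± 0.29, limma adjusted p 0.614) and NDUFB2 had -0.31 ± 0.24 (limma adjusted p 0.705). Of the 12 tested NDUFB and NDUFC genes 8 were negative, with a median of -0.093.

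Most of the nuclear core subunits of complex I bind the flavin or the iron-sulphur clusters that carry the electrons. The 6 nuclear core subunits with a probe set were NDUFV1, NDUFV2, NDUFS1, NDUFS3, NDUFS7 and NDUFS8. All were tested, with 3 positive and 3 negative differences between -0.32 and 0.16 and limma adjusted p from 0.636 to 0.963. NDUFS1, the largest, read 140, 124 and 169 in laminitis and 185, 185 and 167 in normal tissue (-0.32 ± 0.20), and laminitis replicate 4 overlapped normal replicate 4. NDUFV2 read 975, 704 and 394 in laminitis against 586, 579 and 582 in normal tissue. The normal arrays were nearly equal (SD 3.20), while the laminitis arrays spread on both sides of them (SD 290.4), and the difference was 0.15 ± 0.33. NDUFS8 was also spread in laminitis, with 434, 337 and 120 against 266, 356 and 273 (-0.19 ± 0.47). NDUFV1, which binds NADH and the flavin, had 0.062 ± 0.32, NDUFS3 had 0.16 ± 0.21 and NDUFS7 had -0.30 ± 0.42. NDUFS7 was above the median on only 3 arrays, laminitis replicate 3 and normal replicates 2 and 4.

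The supernumerary subunits named NDUFA, NDUFS or NDUFV surround and stabilise this core. Of the 15 tested, 8 were positive and 7 negative, with a median of 0.074. NDUFAB1, the mitochondrial acyl carrier protein, which also serves lipoic acid and fatty acid synthesis, read 2620, 2527 and 1773 in laminitis and 2123, 1573 and 1358 in normal tissue. The groups overlapped through laminitis replicate 4, the log2 difference was 0.46 ± 0.26 (limma adjusted p 0.608), and a dimmer tested probe set of the gene gave -0.27 ± 0.23. NDUFA2 read 305, 237 and 249 against 295, 397 and 318 (-0.35 ± 0.21, limma adjusted p 0.630). NDUFA10 had the largest difference of the 70 genes, 1.06, but its SE was 0.83, since it read 324, 175 and 51.5 against 104, 126 and 24.6. In both groups replicate 4 was the lowest array for this gene. Several of the rest were level across groups and arrays: NDUFA12 read 434 to 529 on the 6 arrays (-0.021 ± 0.19), NDUFS4 525 to 673 (-0.072 ± 0.19) and NDUFA6 499 to 596 (0.090 ± 0.18).

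Complex II links the tricarboxylic acid cycle to the respiratory chain. Its catalytic pair was tested. SDHA, the flavoprotein that oxidises succinate, read 530, 532 and 403 in laminitis and 458, 345 and 546 in normal tissue (0.13 ± 0.25, limma adjusted p 0.876). SDHB, its iron-sulphur partner, read 210, 193 and 202 against 193, 151 and 267 (0.025 ± 0.25, limma adjusted p 0.983). For both genes normal replicate 3 was the lowest array and normal replicate 4 the highest, so the normal arrays spanned the laminitis ones. Without normal replicate 3 the differences changed sign, to -0.047 for SDHA and -0.17 for SDHB. The membrane anchors SDHC and SDHD lay below the median on every array and were not tested.

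Complex IV, cytochrome c oxidase, had all 12 genes tested, with 8 positive and 4 negative and a median of 0.056. The 8 widely expressed subunits had a median of 0.028. COX5A, a subunit on the matrix side, read 1869, 1297 and 984 in laminitis and 1058, 1011 and 901 in normal tissue. Laminitis replicate 1 was far above the rest and replicate 4 lay within the normal range. The difference was 0.44 ± 0.27 (limma adjusted p 0.633) and 0.19 without laminitis replicate 1. COX7C read 356, 286 and 449 against 449, 581 and 418 (-0.42 ± 0.25, limma adjusted p 0.621).

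COX4I1, the isoform of subunit 4 found in most tissues, read 842, 707 and 751 against 761, 675 and 647 (0.14 ± 0.19), and its hypoxia-linked partner COX4I2 was not analysed here. COX8A is the case of non-overlapping groups with the least difference. It read 1471, 1429 and 1432 against 1416, 1429 and 1349, where the nearest laminitis and normal values are equal to 4 digits. Its difference of 0.047 ± 0.17 (limma adjusted p 0.942) became -0.22 after quantile normalization and -0.17 after cyclic loess.

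Several complex IV subunits come in isoforms, of which the heart and skeletal muscle forms are COX6A2, COX7A1 and COX8B, and the testis form of subunit 6B is COX6B2. The muscle form COX6A2 read 163, 138 and 157 in laminitis and 140, 87.9 and 65.4 in normal tissue. Normal replicate 2 lay inside the laminitis range, and the other 2 normal arrays lay under the array median. The difference was 0.71 ± 0.30 (limma adjusted p 0.510), or 0.46 without normal replicate 4 and 1.01 without normal replicate 2. The widely expressed partner COX6A1 read 3377 to 3846 in laminitis and 3176 to 3550 in normal tissue, with a difference of 0.064 ± 0.18 (limma adjusted p 0.924), or -0.35 after quantile normalization and -0.28 after cyclic loess. COX7A1 rested on a single array: it read 598, 157 and 147 against 283, 171 and 104, and its difference of 0.49 ± 0.61 became -0.17 without laminitis replicate 1. COX7A2 had -0.13 ± 0.20.

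COX8B had -0.21 ± 0.50, with 46.3 on laminitis replicate 1 against 183 and 150 on the other laminitis arrays, and COX6B2 had 0.27 ± 0.21. Of 7 skeletal muscle markers, 6 were tested and 2 of them were positive, and the summed signal of the list was 1887 to 2353 in laminitis and 2115 to 2509 in normal tissue. The summed smooth muscle list was 3078 to 4288 and 4003 to 5196. Both ranges overlapped between groups, and their part in the values of the muscle isoforms was not tested.

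Complex V, the ATP synthase, had 14 of its 16 genes tested, with 10 positive and 4 negative differences and a median of 0.076. All 5 genes of the F1 head, the part that makes ATP, were positive on the deposited scale. ATP5F1B, the catalytic beta subunit, read 1341, 1353 and 1202 in laminitis and 1118, 814 and 868 in normal tissue. On the deposited scale the groups did not overlap, and laminitis replicate 4 was nearest to normal replicate 2. The difference was 0.49 ± 0.20, or 1.40-fold higher, at a limma adjusted p of 0.508. It was 0.27 after quantile normalization and 0.31 after cyclic loess, and the groups overlapped under both. ATP5F1A, the alpha subunit, read 3421, 4225 and 3997 against 3251, 3576 and 3304 (0.20 ± 0.19, limma adjusted p 0.755). It changed sign to -0.28 and -0.15 under those scalings, and a dimmer tested probe set gave -0.29 ± 0.24. ATP5F1C had 0.22 ± 0.26, or 0.037 without laminitis replicate 3 and 0.43 without laminitis replicate 4, ATP5F1D 0.079 ± 0.23 and ATP5F1E 0.0016 ± 0.19. After quantile normalization or cyclic loess 3 of the 5 were positive.

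The peripheral stalk, which keeps the F1 head from turning with the rotor, had 3 of 4 genes negative. ATP5PO, the subunit that ties the stalk to the head, read 302, 279 and 421 in laminitis and 443, 436 and 418 in normal tissue. Laminitis replicates 1 and 3 lay under all normal arrays and replicate 4 among them. The difference was -0.39 ± 0.22 (limma adjusted p 0.599). ATP5PF had -0.18 ± 0.21 and ATP5PD -0.095 ± 0.21, while ATP5PB, the b subunit, read 601, 569 and 458 against 474, 450 and 402 (0.29 ± 0.20, limma adjusted p 0.665). The stalk's median was -0.14 and that of the F1 head 0.20.

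The c-ring, the rotor through which protons pass, is made from a protein that 3 genes encode, with different import sequences and the same mature product. ATP5MC1 read 545, 696 and 453 against 642, 614 and 283 (0.21 ± 0.36), ATP5MC2 read 509, 651 and 861 against 642, 777 and 569 (0.0025 ± 0.26), and ATP5MC3 read 1611, 1744 and 1245 against 1444, 1336 and 1343 (0.14 ± 0.20). All 3 overlapped between groups, with limma adjusted p from 0.840 to 0.998. Laminitis replicate 4 was the lowest laminitis array for ATP5MC1 and ATP5MC3 and the highest for ATP5MC2. After quantile normalization ATP5MC2 and ATP5MC3 changed sign, to -0.11 and -0.12. ATP5MG, a membrane subunit, read 1966 to 2509 in laminitis and 1781 to 2360 in normal tissue (0.072 ± 0.21).

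Genes not tested account for the remaining 8. They were NDUFA3, NDUFB7, NDUFS6, SDHC, SDHD, ATP5ME, ATP5MJ and ATP5IF1, each below the median on all 6 arrays. Their signals ran from 8.54, for NDUFS6 on laminitis replicate 4, to 81.8, for SDHC on normal replicate 4. COX7A2L was tested and had -0.30 ± 0.77. Of the 18 genes with more than 1 probe set, 7 had more than 1 tested, and in 1 of these 7, UQCRC2, the tested probe sets had differences of 1 sign. In all of the 7 but COX6C the brighter probe set, which stands for its gene, had the higher difference. For NDUFA5 these were 0.19 and -0.43, and for COX6C -0.17 and 0.020. With the mean of all tested probe sets of a gene, 52.9% of the 70 genes were positive in place of 55.7%.

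The direction of the complex medians depended on the scaling. With the deposited values they were -0.012 for complex I, 0.079 for complex II, 0.047 for complex III, 0.056 for complex IV and 0.076 for complex V. Quantile normalization turned complexes III, IV and V negative, to -0.0070, -0.11 and -0.099, and cyclic loess turned complexes IV and V negative, to -0.092 and -0.075, and complex I positive at 0.024. Of the 70 genes 55.7% were positive as deposited, 44.3% after quantile normalization, 48.6% after cyclic loess and 67.1% after centring on the median.

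Brightness moved with these values. In the deposited data the differences of other genes were greater at higher mean signal, from a median of -0.11 below a mean log2 of 7 to 0.31 above 10. These classes describe the signal of a probe set, which depends on how its bovine probes bind the horse transcript, and not the amount of RNA. The probe sets of 27 of the 70 subunit genes (38.6%) and of 15.2% of the other genes fell in the classes above 9. In the 2 brightest classes the subunits had lower medians than the other genes, and between 7 and 9 slightly higher ones, with no test of either. Between 9 and 10 their median was 0.0025 for 19 genes, against 0.11 for 510 other genes. Above 10 it was 0.17 for 8 genes, all positive, against 0.31 for 416 others, of which 79.8% were positive. Between 7 and 8 it was -0.046 for 19 subunit genes against -0.078.

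**Figure D3:**
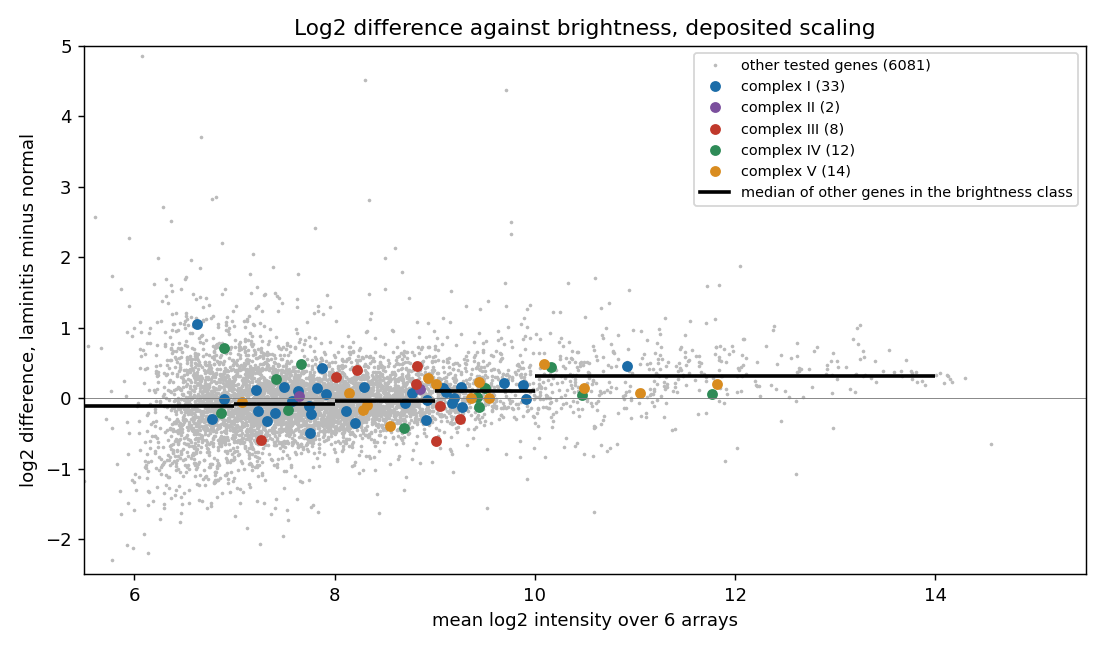
Log2 difference, laminitis minus normal (y axis), against mean log2 signal over the 6 arrays (x axis), for the other tested genes (grey) and the subunit genes of complexes I to V (coloured). Black lines are medians of the other genes in 5 brightness classes, which climb from -0.11 to 0.31, and the 8 subunit genes above 10 have a median of 0.17.

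The level of the subunit genes also varied from array to array within each group. Each gene was set against its own mean over the 6 arrays. The median of the 70 genes then lay at 0.15, 0.093 and -0.13 on laminitis replicates 1, 3 and 4 and at 0.042, -0.0030 and -0.067 on normal replicates 2, 3 and 4. Over all genes tested the same medians stayed between 0.0071 and 0.039. Laminitis replicate 4 was thus the lowest laminitis array and normal replicate 4 the lowest normal array, and after quantile normalization they lay at -0.13 and -0.055, again the lowest of their groups. In complex I laminitis replicate 4 lay at -0.25, against 0.11 and 0.12 on the other laminitis arrays. In complex IV laminitis replicate 1 was the highest at 0.24 and normal replicate 4 the lowest at -0.16. After quantile normalization normal replicate 2 was the highest in complex IV at 0.16, with laminitis replicate 1 at 0.14.

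**Figure D4:**
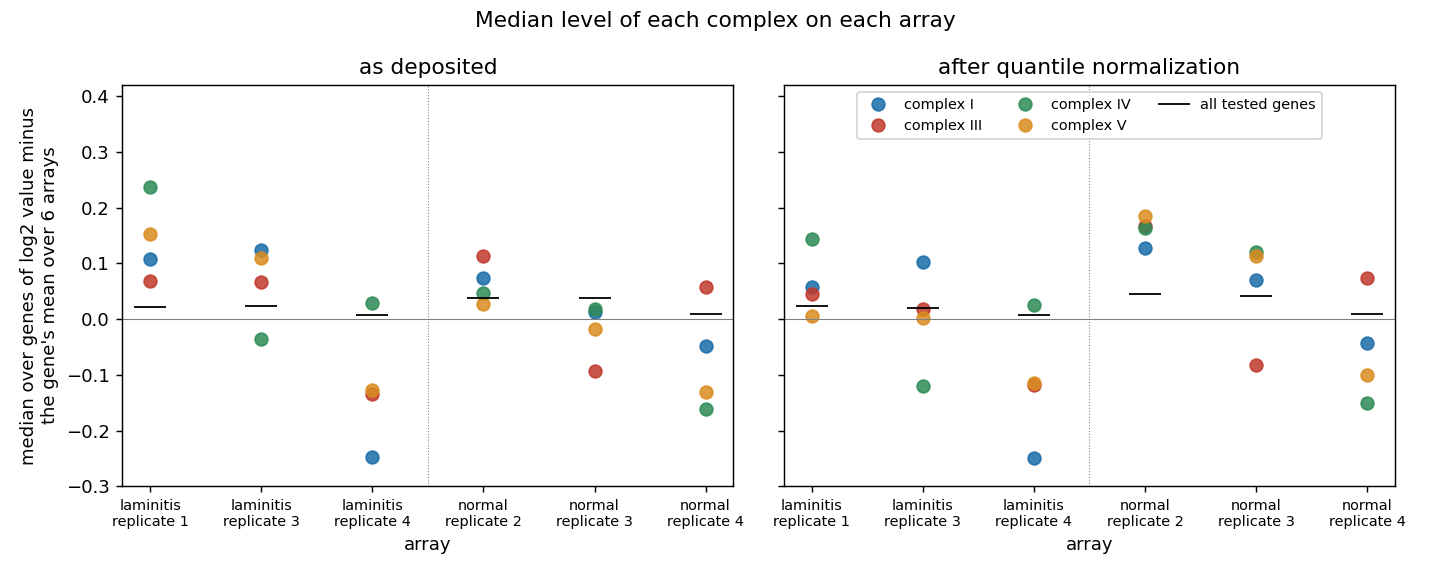
Median over the tested genes of complexes I, III, IV and V of the log2 value minus the gene's mean over 6 arrays (y axis) on each array (x axis), as deposited (left) and after quantile normalization (right), with black dashes for all tested genes; complex II, with 2 tested genes, is not drawn. Laminitis replicate 4 and normal replicate 4 are low for complexes I and V under both scalings.

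Counts of genes show the same pattern. The lowest of the 6 values fell on laminitis replicate 4 in 21 of the 70 subunit genes (30%) and on normal replicate 4 in 20 (28.6%), against 17.8% and 16.5% of all genes. On the deposited scale the highest value fell on laminitis replicate 1 in 28 (40%), against 20.5% of all genes. After quantile normalization the median of the 70 genes was 0.055 on that array, under 0.14 and 0.078 on normal replicates 2 and 3. Laminitis replicate 1 also had the highest log2 ratio of 3' to 5' control probe sets of the 6, 3.28 for GAPDH and 2.73 for actin. The part of RNA quality in the subunit values was not tested. In 21 of 70 genes (30%) replicate 4 was the lowest array of both groups at once, against 12.9% of all genes, and after quantile normalization in 22 against 13.5%. NDUFA1 was such a gene, with 735, 673 and 376 in laminitis and 581, 566 and 422 in normal tissue, as was NDUFA8, with 581, 454 and 343 against 481, 459 and 351. This count was chosen after the values had been seen. The labels do not say that the shared number 4 links these samples.

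Fibroblast markers were high on the arrays numbered 4. The summed signal of the 9 markers was 8700, 12530 and 30240 on laminitis replicates 1, 3 and 4 and 9328, 14410 and 31360 on normal replicates 2, 3 and 4. The range was 8700 to 30240 in laminitis and 9328 to 31360 in normal tissue, and in 6 of the 9 markers replicate 4 was the highest array of both groups. The sum is weighted to markers with high signals, such as COL1A1, a chain of the main fibrillar collagen, which read 2837, 3276 and 10633 against 1487, 3954 and 8865. The sums of the endothelial markers (905.5, 626.5 and 1161 against 857.3, 842.1 and 1167) and the smooth muscle markers (3844, 3078 and 4288 against 4003, 4503 and 5196) were also highest on replicate 4 in both groups, with 2 of 9 and 2 of 7 single markers so. Keratinocyte sums were 2141, 2448 and 3223 against 2366, 2100 and 1667, with 2 of 9 markers highest on replicate 4 in both groups. The part of these cell types in the subunit values was not tested.

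Summed markers of some other cells did not overlap between the groups. The summed signal of 5 neutrophil markers was 1504 to 13020 in laminitis and 512.3 to 1001 in normal tissue. Of its 4 tested genes, S100A8 (4.37 ± 1.00) and S100A9 (4.52 ± 0.87) were positive, while ELANE (-1.05 ± 0.34) and MPO (-0.44 ± 0.21) were negative. MMP9 lay below the median on all 6 arrays. S100A8 alone read 9810, 7256 and 779 in laminitis, so this sum is weighted to it. The sum of 6 macrophage and monocyte markers was 683.3 to 797.8 against 581.4 to 680.8, but only CYBB (2.20 ± 0.41) and MSR1 (0.59 ± 0.27) of its 4 tested genes were positive, while CD68 (-0.26 ± 0.26) and CD14 (-0.16 ± 0.26) were negative. The sum of 5 adipocyte markers was 217.7 to 255.9 against 288.9 to 359.8, with 1 of them, FABP4, bright enough to test (-0.88 ± 0.26). Their part in the differences of the subunit genes was not tested.

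**Figure D5:**
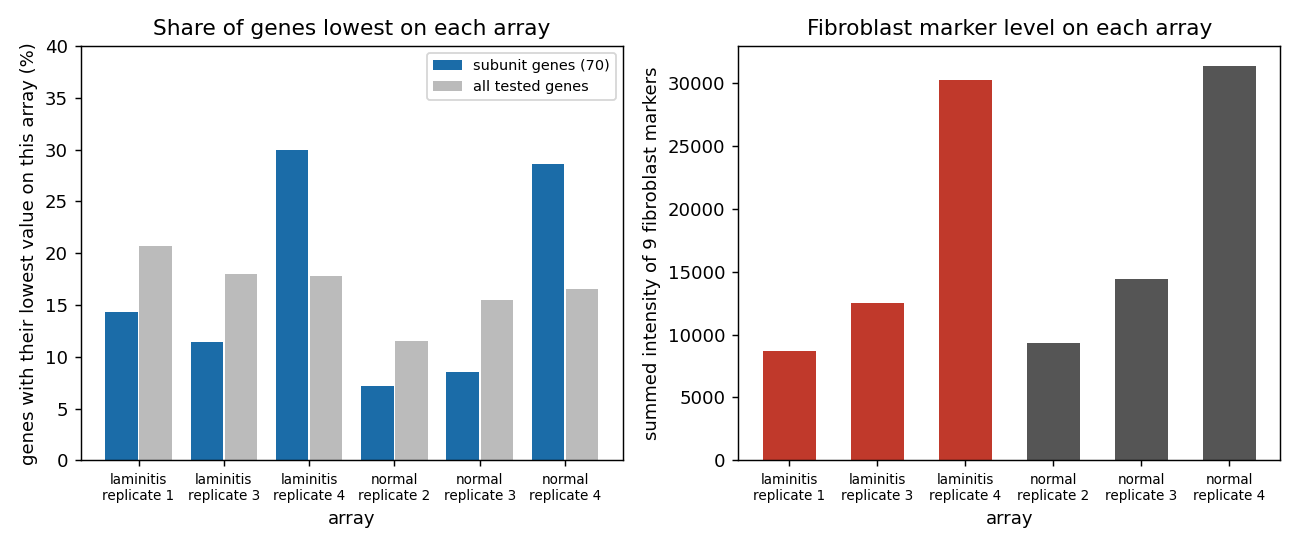
Left, percent of genes (y axis) whose lowest value over the 6 arrays fell on each array (x axis), for the 70 subunit genes (blue) and all 6151 tested genes (grey); right, summed signal of 9 fibroblast markers on the deposited linear scale (y axis) on each array, laminitis in red and normal in grey. Laminitis replicate 4 and normal replicate 4 hold the lowest values of 30% and 28.6% of the subunit genes and the highest fibroblast sums, 30240 and 31360.

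Spread between replicates was of the usual size for these arrays. The median within-group SD on the log2 scale was 0.28 for the 70 subunit genes and 0.32 for all genes. It was 0.28 among the laminitis arrays and 0.20 among the normal arrays for the subunits, and 0.31 and 0.25 for all genes. Complex I spread most among the laminitis arrays, at 0.35 against 0.19 in normal tissue, and over both groups complex V had the lowest median, 0.20.

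Other genes of the pathway, listed by function, also gave 0 calls in either direction. Over all genes tested 46.4% of the differences were positive, so most were negative. Among genes other than the subunits this share rose with brightness, from 40.6% between a mean log2 of 7 and 8 to 79.8% above 10. The part of brightness in the signs of these lists was not tested. Of 24 tested assembly factors, which help build the complexes, 17 were negative (median -0.13) and 4 had groups apart with laminitis lower, a direction in which 8.36% of all genes were apart. Among these, ACAD9, a complex I assembly factor, read 158, 121 and 128 against 211, 233 and 197 (-0.66 ± 0.20, limma adjusted p 0.408), and FMC1, a complex V assembly factor, had -0.60 ± 0.23 (limma adjusted p 0.491). Of 10 genes for ubiquinone synthesis and electron delivery 7 were negative (median -0.079), with PDSS2 at -0.74 ± 0.25 and COQ3 at -0.49 ± 0.18, both enzymes of the ubiquinone pathway (limma adjusted p 0.453 and 0.490).

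Of 12 genes listed for the tricarboxylic acid cycle, among them the pyruvate dehydrogenase genes PDHA1, PDHB and DLAT, 8 were negative (median -0.041). IDH2, the mitochondrial NADP isocitrate dehydrogenase, read 353, 337 and 314 against 549, 434 and 505 (-0.56 ± 0.19, limma adjusted p 0.456), with the groups apart. FH, fumarase, lay the other way at 0.44 ± 0.20 (limma adjusted p 0.525). A list of 7 genes held carriers and channels that move adenine nucleotides, phosphate and metabolites, and the mitochondrial creatine kinase CKMT2. Of these 7 genes 6 were positive (median 0.11), with the outer membrane channels VDAC1 at 0.67 ± 0.28 and VDAC2 at 0.43 ± 0.21 (limma adjusted p 0.508 and 0.562). All but CKMT2 had group means above 9 on the log2 scale, where most other genes were positive (60.4% between 9 and 10, 79.8% above 10).

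The list of mitochondrial biogenesis regulators had 12 tested genes, 8 of them positive, and a median of 0.35 beside 0.036 for the subunits. PPRC1, a coactivator of the PGC-1 family that acts with NRF1 on respiratory genes, read 508, 601 and 491 in laminitis and 271, 251 and 296 in normal tissue. The laminitis arrays were all well above the normal ones, and the difference was 0.97 ± 0.19, at a limma adjusted p of 0.238. TFB1M, a mitochondrial rRNA methyltransferase, had 0.48 ± 0.23 (limma adjusted p 0.551). The negative genes of the list were NRF1 itself (-0.32 ± 0.24), PPARGC1A of the PGC-1 family (-0.58 ± 0.50), TWNK (-0.41 ± 0.49) and TFB2M (-0.19 ± 0.27). The difference between this list and the subunits was not tested.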

How the data were processed

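Total RNA of lamellar tissue was labelled by oligo(dT) priming with a single round of amplification and hybridised to bovine GeneChips, per the labels' protocols. The deposited values are linear intensities. GCRMA is named, with no version, in the submitters' processing notes, but each array's mean after trimming 2% at each end lay between 150.02 and 150.03, a common scaling that is not part of GCRMA; no source used here gives the step that made it, and it could shift all differences together. Detection calls were not used here.

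The array has 24128 probe sets. After 112 controls were removed, 13292 had 1 gene symbol, 86 several and 10638 none. Symbols are the platform annotation's bovine ones, and 76 of the 78 member symbols occur in the RefSeq gene table of the horse assembly TB-T2T, without COX8B and ATP5ME. Values were put on the log2 scale without an offset. Probe sets above their array's median on at least 3 of 6 arrays were tested, 12519 in all, with limma 3.58.1 (lmFit, then eBayes; R 4.3.3). P-values are two-sided and were adjusted by the Benjamini-Hochberg method across every tested probe set. The variance prior had 3.02 degrees of freedom beside 4 residual ones. The brightest tested probe set stood for its gene. Errors are limma's standard errors unless marked SD. No pair of arrays was identical.

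The members, lists and tests were chosen with earlier results of these data known. Genes were named by rule: per complex the 6 of smallest p, the core subunits of complex I, the isoform groups and ATP5F1A and ATP5F1B; per other list the 2 of smallest p. Genes beyond it (NDUFA1, NDUFA6, NDUFA8, NDUFA10, NDUFA12, NDUFS4, UQCRH, UQCRQ, ATP5F1D, ATP5F1E, ATP5MG, ATP5PD, COX7A2L, NRF1, PPARGC1A, TWNK and TFB2M) were named after their values were seen. Complexes are described by counts and medians, with no test. The fit was tested on simulated data. Alternatives tried were quantile normalization, median centring, cyclic loess, 64 added to every value, other filters, array weights, the replicate number as a block, the mean of a gene's probe sets and each array left out. The planned description of promoter motifs was not run, and no sequences were used here.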

Additional observations from a re-analysis of the deposited data

How the results depend on the processing

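With 3 arrays per group, dim probe sets and genes with wide intervals are the least certain. Limma called 0 subunit genes in every setting. Over 38 named genes and 640 alternative values, 609 kept their sign and side of the threshold, 31 had the other sign, and 23 genes kept their sign throughout. Where values moved, the cause was not tested.

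Quantile normalization gave medians of -0.0070 for complex III, -0.11 for complex IV, -0.099 for complex V and -0.062 for all subunit genes, and it turned COX4I1 to -0.011, ATP5F1A to -0.28, COX6A1 to -0.35, COX8A to -0.22, ATP5MC2 to -0.11 and ATP5MC3 to -0.12. Cyclic loess gave 0.024 for complex I, -0.092 for complex IV, -0.075 for complex V and -0.055 for all, with ATP5F1A at -0.15, COX6A1 at -0.28, COX8A at -0.17, ATP5MC2 at -0.095 and ATP5MC3 at -0.076. Centring on the median gave 0.070 for complex I and 7 subunit genes with laminitis wholly higher (10%) in place of 3, beside 11.1% of all genes under that centring. Adding 64 gave 0.00081 for complex I. Array weights gave 0.021 for complex I, -0.021 for ATP5MC2 and 1 gene higher at an unadjusted p under 0.05 in place of 3, and with no filter there were 0. The mean of all probe sets of a gene gave -0.044 for ATP5F1A.

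Both groups have samples numbered 3 and 4, and the main fit did not pair them. Over all tested probe sets the deviations of same-numbered samples correlated at -0.0167 and -0.031. The arrays numbered 4 shared low subunit values and high fibroblast sums, which a correlation over all probe sets need not show. Whether a shared number means a shared animal or batch is not known. With the replicate number as a block, 1 subunit gene was higher and 0 lower at an unadjusted p under 0.05, SDHB was -0.025, COX8B 0.36, NDUFV2 -0.14 and NDUFS7 0.024.

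With 1 array left out, 0 to 2 subunit genes were higher and 1 to 2 lower at an unadjusted p under 0.05. Groups were apart higher in 5 genes without normal replicate 3 (7.14%, all genes 11.9%) to 17 without laminitis replicate 4 (24.3%, all genes 17%). They were apart lower in 4 without laminitis replicate 3 (5.8%, all genes 13.3%) to 9 without laminitis replicate 4 (12.9%, all genes 16.3%). The median ran from -0.091 (without laminitis replicate 1) to 0.082 (without laminitis replicate 4) for complex I, from -0.11 to 0.26 for complex II (normal replicates 3 and 4 left out in turn), from -0.041 to 0.15 for complex III (normal replicates 3 and 2), from 0.022 (without laminitis replicate 1) to 0.14 (without laminitis replicate 3) for complex IV, from -0.0014 (without normal replicate 4) to 0.14 (without laminitis replicate 4) for complex V, and from -0.033 (without laminitis replicate 1) to 0.11 (without laminitis replicate 4) for all. Genes that changed sign were SDHA (-0.047 to 0.29), SDHB (-0.17 to 0.24), COX7A1 (-0.17 to 0.85), COX8B (-0.59 to 0.40), NDUFV1 (-0.14 to 0.41), NDUFV2 (-0.14 to 0.51), NDUFS7 (-0.55 to 0.013), NDUFS8 (-0.56 to 0.37), ATP5MC1 (-0.17 to 0.41) and ATP5MC2 (-0.19 to 0.19).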
